A study of Rattus norvegicus with 21 samples.

Results

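The genes described here are 47 genes of mitosis and of the mitotic spindle, listed by name and found through the gene symbols of the platform annotation. Of these, 46 were measured among the 14506 genes with a probe set of a single symbol, and Ncaph, a condensin subunit, was not matched. The tissues were pituitary adenomas of MENX rats, which are homozygous for a mutation of Cdkn1b (the gene of the cell cycle inhibitor p27), and normal pituitaries of wild-type rats of the same Sprague-Dawley white eye/Wistar-Kyoto background. The 16 lesions carried 9 sample numbers in the labels, and lesions of a shared number were averaged, giving adenomas 1 to 9 from rats of 7 to 12 months (6 female, 3 male). Each number was read as 1 animal, although the study's text speaks of more rats than there are numbers and of a narrower range of ages. The number of animals and the ages therefore rest on the labels. The 5 wild-type pituitaries came from rats of 6 months (2 female, 3 male), so age and genotype cannot be told apart. RNA came from macrodissected bulk tissue, so a larger share of dividing cells and more RNA per dividing cell cannot be told apart either.

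Cells enter mitosis when CDK1, bound to B-type cyclins, is switched on by CDC25 phosphatases and aided by Polo and Aurora kinases. Chromosomes then condense, kinetochores at the centromeres take hold of spindle microtubules, and the spindle checkpoint holds back the anaphase-promoting complex until all chromosomes are attached. After securin and cyclin B are destroyed the sister chromatids part, and the central spindle positions the cleavage furrow. Most of these genes are transcribed in late S phase, G2 and M, and the adult pituitary holds few dividing cells.

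Many promoters of this kind carry the cell cycle homology region, whose core is TTTGAA, and CCAAT boxes. Both were searched, on both strands (reverse complements TTCAAA and ATTGG), in RefSeq promoters of the GRCr8 build, which run from 250 bases before to 50 bases after the annotated start. Of the 47 genes, 41 had an entry. TTTGAA stood in 28 of the 41 (68.3%), against 18.1% of the 27457 genes with an entry, and CCAAT stood in 32 of the 41, against 37.7% of all genes. Both stood in 24 of the 41 (58.5%), against 7.25% of all. Within a narrower window that began 70 bases before the start, TTTGAA was found in 23 of the 41 (56.1%), against 6.2% of all genes. A match is a description of the letters and not a binding site.

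The stretches printed here run from 100 bases before to 50 bases after the start, 5′ to 3′ on the strand of the gene, with both motifs in capitals. The genes are, for each mitotic step, the one with an entry and the largest difference between adenomas and wild type. They show where the motifs lie, if present, in genes that act at different moments of mitosis.
Ccnb1: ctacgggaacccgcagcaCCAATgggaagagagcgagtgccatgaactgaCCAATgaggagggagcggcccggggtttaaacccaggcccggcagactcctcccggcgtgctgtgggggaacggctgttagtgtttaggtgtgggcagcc
Top2a: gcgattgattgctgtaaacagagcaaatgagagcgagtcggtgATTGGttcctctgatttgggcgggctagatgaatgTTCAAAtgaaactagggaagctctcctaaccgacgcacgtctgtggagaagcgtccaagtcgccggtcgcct
Ndc80: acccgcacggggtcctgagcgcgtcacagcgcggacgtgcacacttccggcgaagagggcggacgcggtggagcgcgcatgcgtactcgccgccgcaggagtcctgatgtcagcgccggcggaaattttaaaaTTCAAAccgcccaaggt
Ttk: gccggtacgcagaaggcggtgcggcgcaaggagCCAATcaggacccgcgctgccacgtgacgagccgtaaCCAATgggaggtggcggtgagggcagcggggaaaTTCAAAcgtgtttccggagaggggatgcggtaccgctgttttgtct
Nusap1: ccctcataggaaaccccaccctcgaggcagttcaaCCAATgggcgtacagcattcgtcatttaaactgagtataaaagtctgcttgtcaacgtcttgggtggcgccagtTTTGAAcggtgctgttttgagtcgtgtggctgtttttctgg
Pttg1: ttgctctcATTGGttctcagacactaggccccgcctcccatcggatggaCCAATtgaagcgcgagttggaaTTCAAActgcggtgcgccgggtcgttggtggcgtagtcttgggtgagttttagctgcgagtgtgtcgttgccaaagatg
Ect2: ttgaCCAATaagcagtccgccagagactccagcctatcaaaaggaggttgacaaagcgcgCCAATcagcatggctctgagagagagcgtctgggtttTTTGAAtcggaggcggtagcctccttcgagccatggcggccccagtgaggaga
The stretches lie at these positions of GRCr8: Ccnb1 at chr2:33655176-33655325, minus strand; Top2a at chr10:84473044-84473193, minus strand; Ndc80 at chr9:118887480-118887629, minus strand; Ttk at chr8:93634539-93634688, plus strand; Nusap1 at chr3:127057195-127057344, plus strand; Pttg1 at chr10:28406277-28406426, minus strand; and Ect2 at chr2:111966577-111966726, minus strand. In 6 of the 7 TTTGAA or its complement lay near the start, at position -22 in Top2a, 34 in Ndc80, 5 in Ttk, 10 in Nusap1, -29 in Pttg1 and -3 in Ect2, counted from 1 at the start to the leftmost base of the motif. Ccnb1 held no TTTGAA in its 300 bases and held CCAAT boxes at -82 and -50. Ndc80 was the reverse, with TTTGAA's complement and no CCAAT.

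Shown for contrast are 3 genes of the list whose expression did not pass the test, chosen after their values were seen.
Birc5: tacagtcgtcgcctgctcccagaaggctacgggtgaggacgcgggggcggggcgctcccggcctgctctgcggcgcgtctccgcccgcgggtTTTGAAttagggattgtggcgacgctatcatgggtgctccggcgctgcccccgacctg
Cks2: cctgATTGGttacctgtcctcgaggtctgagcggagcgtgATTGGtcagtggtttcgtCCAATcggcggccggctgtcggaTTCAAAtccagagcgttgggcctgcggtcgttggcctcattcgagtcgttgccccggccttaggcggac
Psrc1: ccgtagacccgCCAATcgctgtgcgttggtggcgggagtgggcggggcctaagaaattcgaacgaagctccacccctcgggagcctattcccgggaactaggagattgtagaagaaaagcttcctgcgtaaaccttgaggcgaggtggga
Their positions are Birc5 at chr10:103572046-103572195, plus strand; Cks2 at chr17:13727470-13727619, minus strand; and Psrc1 at chr2:198710449-198710598, plus strand. Birc5 had TTTGAA at -8 and Cks2 had its complement at -19 with CCAAT boxes or their complements at -96, -60 and -42. Psrc1 had a CCAAT box at -89 and no TTTGAA, though it held the variant TTCGAA, which is not in capitals. Among the 40 measured genes of the list with an entry, TTTGAA was present in 25 of the 34 that were called higher (73.5%) and in 3 of the 6 that were not called. When TTCGAA was counted as well, the shares were 73.5% and 83.3%, against 19.5% of all genes with an entry.

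Values are log2 expression from Affymetrix Rat Gene 1.0 ST arrays. Array medians ran from 6.36 to 6.53. Cdkn1b mRNA averaged 9.23 ± 0.17 in adenomas and 8.91 ± 0.19 in wild type (SD, n = 9 and 5), and since the mutation makes the protein unstable the mRNA level checks no label. Cga, the alpha subunit that marks gonadotrophs and thyrotrophs, was high in both tissues, at 13.77 ± 0.05 in adenomas and 12.86 ± 0.33 in wild type. Lhb, the gonadotroph hormone subunit, averaged 7.15 ± 0.45 in adenomas and 9.39 ± 0.71 in wild type. Corticotroph and melanotroph markers were lower in adenomas for 4 of 5 genes, markers of somatotrophs, lactotrophs and thyrotrophs for 4 of 6, folliculostellate and stem cell markers for 4 of 6 and posterior lobe markers for 4 of 7, whereas macrophage markers were higher for 8 of 13 and pericyte and fibroblast markers for 6 of 10. By the same test, 12.1% of all 14506 named genes were higher and 1407 genes were lower.

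Of the 46 genes, 38 were higher in adenomas and 0 were lower (limma, adjusted p under 0.05 over all 29214 probe sets), while 8.49% of all probe sets were called higher and 9.06% lower. With 1 probe set per gene, 12.1% of all named genes were called higher. With a fold over 2 the count was 29 of 46, against 1.43% of all probe sets, and in 28 of 46 every adenoma value lay above every wild-type value, against 2.66% of all probe sets. The median log2 difference was 1.20 over the 46 genes and -0.035 over all probe sets. The difference was positive for 44 genes, and the 8 genes that were not called were Cdc25b, Cks2, Cdca3, Smc2, Aurkb, Birc5, Psrc1 and Ube2c. The study named several of these genes as up-regulated from the same arrays, so their count is not independent evidence.

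Rises were found at every mitotic step. Higher were 10 of 13 genes of mitotic entry, 3 of 4 of chromosome condensation, 6 of 8 of the centromere, kinetochore and passenger complex, 4 of 4 checkpoint genes, 7 of 8 spindle assembly genes, 2 of 3 genes of anaphase onset and 6 of 6 midzone and cytokinesis genes. The median log2 difference was 1.64 for midzone and cytokinesis, 1.45 for spindle assembly, 1.41 for the checkpoint, 1.07 for anaphase onset, 0.94 for entry, 0.93 for condensation and 0.89 for the centromere group. Differences between steps were not tested.

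**Figure D1:**
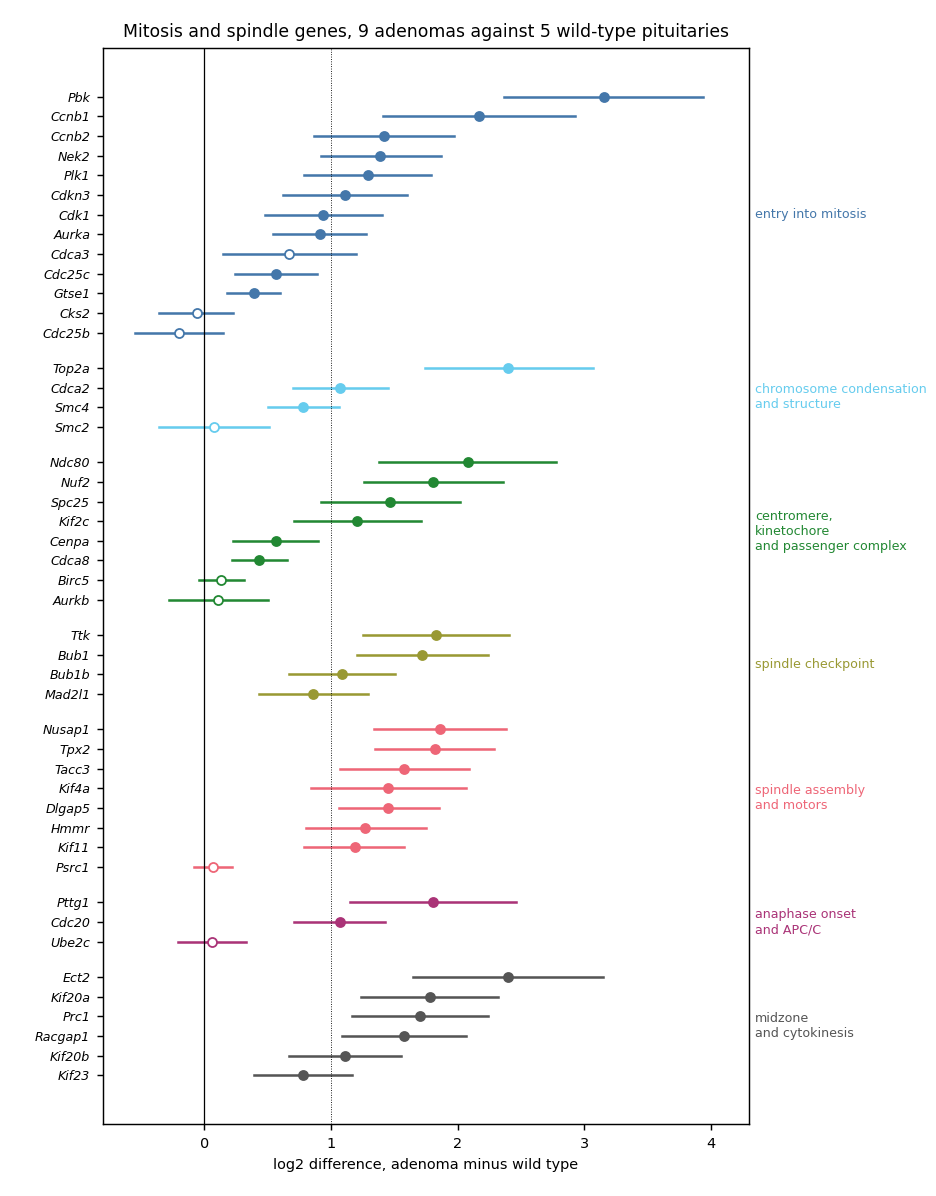
Log2 difference, adenoma minus wild type, of each of the 46 genes (points, with the 95% interval of the limma fit as a line), grouped by mitotic step. Filled points were called higher and open points were not called, the dotted line marks a fold of 2, and the 6 cytokinesis genes all lie between 0.78 and 2.40.

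Among the genes of mitotic entry, Pbk, a kinase active in mitotic cells, showed the largest rise of all 46 genes. Its log2 values were 8.22, 7.49, 8.57, 7.76, 8.76, 7.10, 8.01, 7.93 and 5.85 in adenomas 1 to 9, against 4.73, 5.14, 4.42, 4.37 and 4.27 in wild-type pituitaries 1 to 5. All adenomas lay above all wild-type values, with adenoma 5 highest and adenoma 9 lowest. The difference was 3.16 ± 0.370 on the log2 scale (difference ± SE, 95% interval 2.37 to 3.94, adjusted p = 0.000113), a fold of 8.91.

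Ccnb1, which encodes the CDK1 partner cyclin B1, rose by 2.17 ± 0.357 (log2 difference ± SE, adjusted p = 0.00103), Ccnb2 by 1.42, the centrosome kinase gene Nek2 by 1.39, the Polo kinase gene Plk1 by 1.29, and Cdkn3, a phosphatase of cyclin-dependent kinases, by 1.11. Cdk1 itself rose by 0.94 and the Aurora A gene Aurka by 0.91. Smaller rises were found for the phosphatase gene Cdc25c, at 0.57 with a call that was lost without wild type 4, and for Gtse1, at 0.39. A second probe set of Ccnb2 gave 1.45, and the other probe set of Nek2 held values equal to the chosen one on all arrays, so it adds no independent measurement.

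The step also held 3 genes that did not pass. Cks2, a small protein that docks on CDK1, had log2 values of 5.05, 4.81, 4.73, 5.03, 4.80, 4.81, 5.07, 5.22 and 4.79 in adenomas 1 to 9, against 4.92, 4.64, 4.63, 5.51 and 5.24 in wild type 1 to 5. The wild-type values spanned all adenoma values, and the difference was -0.06 ± 0.138 on the log2 scale (difference ± SE, 95% interval -0.36 to 0.23, adjusted p = 0.787). Cdc25b, a CDK1-activating phosphatase like Cdc25c, had 6.70, 6.65, 7.06, 7.21, 6.82, 7.56, 7.21, 7.17 and 7.30 in adenomas, against 7.03, 6.78, 7.41, 7.61 and 7.54 in wild type. No adenoma lay above all wild-type values, and the difference was -0.20 ± 0.165 on the log2 scale (difference ± SE, 95% interval -0.55 to 0.15, adjusted p = 0.437). Cdca3, whose protein helps to trigger mitotic entry, was 5.77 ± 0.47 in adenomas and 5.10 ± 0.53 in wild type (SD), with a difference of 0.67 ± 0.247 and an adjusted p of 0.0714, and it passed without adenoma 9, without wild type 5, after a second quantile normalization, and with the 16 lesions as samples, with the sample number as a random block (adjusted p = 0.0386) or without it (adjusted p = 0.0352).

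Chromosome condensation was led by Top2a, the topoisomerase that untangles sister DNA, with 7.85, 7.64, 9.03, 8.24, 9.09, 7.72, 8.60, 8.85 and 6.89 in adenomas 1 to 9 against 5.56, 6.17, 5.88, 5.80 and 5.63 in wild type 1 to 5. The lowest adenoma stood above the highest wild-type pituitary, and the difference was 2.40 ± 0.313 on the log2 scale (difference ± SE, 95% interval 1.74 to 3.07, adjusted p = 0.000246). Cdca2, which targets a phosphatase to chromatin, rose by 1.07. The paired condensin subunits differed in their values. Smc4 rose by 0.78 (adjusted p = 0.00127), whereas Smc2 had 8.53, 8.30, 9.12, 9.17, 8.76, 9.12, 8.73, 8.93 and 8.27 in adenomas, against 9.40, 8.92, 8.65, 8.21 and 8.28 in wild type. The Smc2 groups overlapped, with wild type 1 the highest of all, and the difference was 0.08 ± 0.203 on the log2 scale (difference ± SE, 95% interval -0.36 to 0.51, adjusted p = 0.829). Whether Smc4 and Smc2 differed from each other was not tested.

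At the kinetochore, Ndc80, the microtubule-binding subunit that gives its complex its name, had 7.73, 7.13, 8.29, 7.14, 8.40, 7.01, 7.81, 7.82 and 5.98 in adenomas 1 to 9, against 5.53, 6.01, 5.25, 5.25 and 4.96 in wild type 1 to 5. All but adenoma 9, which lay just below wild type 2, were above every wild-type value. The difference was 2.08 ± 0.327 on the log2 scale (difference ± SE, 95% interval 1.38 to 2.78, adjusted p = 0.000779). Its fellow subunits in the list rose too, Nuf2 by 1.81 and Spc25 by 1.47, as did the microtubule depolymerase gene Kif2c by 1.21 and the centromeric histone gene Cenpa by 0.57. The call of Cenpa was lost without wild type 3 or without wild type 5.

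Of the chromosomal passenger complex, Cdca8, which encodes borealin, rose by 0.43 (adjusted p = 0.00869). Aurkb, the kinase of the complex, had 6.31, 6.62, 6.91, 6.47, 6.99, 6.19, 6.81, 6.92 and 6.03 in adenomas 1 to 9, against 5.95, 6.69, 6.62, 6.86 and 6.24 in wild type 1 to 5. Its groups overlapped, with 3 adenomas above all wild-type values, and the difference was 0.11 ± 0.182 on the log2 scale (difference ± SE, 95% interval -0.28 to 0.50, adjusted p = 0.713). Birc5, which encodes survivin, was 5.98 ± 0.15 in adenomas and 5.85 ± 0.11 in wild type (SD), a difference of 0.13 ± 0.081 (adjusted p = 0.271). Incenp, the scaffold of the complex and not among the 46, differed by 0.14 and did not pass (adjusted p = 0.281). Whether these genes differed from each other was not tested, and the rise of Cdca8 lies inside the interval of Aurkb.

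The 4 checkpoint genes of the list rose, whereas Bub3, a further checkpoint gene from outside it, differed by 0.07 and did not pass (adjusted p = 0.653). Ttk, the MPS1 kinase that starts checkpoint signalling, had 5.96, 5.28, 6.62, 5.57, 6.54, 5.35, 6.22, 6.71 and 5.00 in adenomas 1 to 9, against 3.89, 4.10, 4.00, 4.45 and 3.96 in wild type 1 to 5, without overlap. Its difference was 1.83 ± 0.271 on the log2 scale (difference ± SE, 95% interval 1.25 to 2.41, adjusted p = 0.000516). Bub1 rose by 1.72 and Bub1b, which encodes BUBR1, by 1.09. The smallest rise was that of Mad2l1, the MAD2 inhibitor of the anaphase-promoting complex, with 7.24, 7.30, 7.48, 6.79, 7.73, 6.64, 7.09, 7.29 and 6.66 in adenomas, against 6.67, 6.60, 6.37, 6.10 and 5.62 in wild type. Adenomas 6 and 9 reached only the level of wild type 1 and the others lay above every wild-type value, and the difference was 0.86 ± 0.201 on the log2 scale (difference ± SE, 95% interval 0.43 to 1.29, adjusted p = 0.00908).

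Spindle assembly genes rose by 1.19 to 1.86 except for Psrc1. Nusap1, a microtubule bundling protein, had 7.30, 6.69, 7.65, 7.04, 7.80, 6.64, 7.25, 7.50 and 5.98 in adenomas 1 to 9, against 4.94, 5.36, 5.24, 5.44 and 5.20 in wild type 1 to 5, again without overlap. Its difference was 1.86 ± 0.244 on the log2 scale (difference ± SE, 95% interval 1.34 to 2.38, adjusted p = 0.000254). Tpx2, the activator of Aurora A on the spindle, rose by 1.82, the centrosome adaptor gene Tacc3 by 1.58, the chromokinesin gene Kif4a and Dlgap5 by 1.45 each, Hmmr by 1.27 and Kif11, the motor that pushes the poles apart, by 1.19. Psrc1, whose protein regulates spindle microtubules, had 6.05, 5.99, 6.08, 6.23, 6.06, 6.11, 5.98, 6.12 and 6.09 in adenomas, against 5.92, 6.20, 5.81, 6.05 and 6.06 in wild type. All adenoma values but that of adenoma 4 lay within the wild-type range, and the difference was 0.07 ± 0.071 on the log2 scale (difference ± SE, 95% interval -0.08 to 0.22, adjusted p = 0.518).

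At anaphase onset, Pttg1, which encodes securin, the inhibitor of separase, had 7.89, 7.39, 8.55, 7.57, 8.82, 7.19, 7.93, 7.94 and 6.44 in adenomas 1 to 9, against 6.03, 6.37, 6.09, 5.68 and 5.52 in wild type 1 to 5. All adenomas lay above all wild-type values, though adenoma 9 was close to wild type 2, and the difference was 1.81 ± 0.308 on the log2 scale (difference ± SE, 95% interval 1.15 to 2.46, adjusted p = 0.00133). Cdc20, the coactivator that opens anaphase, rose by 1.07. Ube2c, the ubiquitin-conjugating enzyme of the anaphase-promoting complex, had 7.28, 7.41, 7.71, 7.53, 7.46, 7.53, 7.51, 7.31 and 7.12 in adenomas, against 7.78, 7.14, 7.16, 7.10 and 7.67 in wild type. The wild-type values of Ube2c split into a high pair and a low trio on either side of most adenomas, and the difference was 0.06 ± 0.126 on the log2 scale (difference ± SE, 95% interval -0.21 to 0.33, adjusted p = 0.783).

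In the midzone and cytokinesis group, Ect2, the exchange factor that activates RhoA at the furrow, had 7.51, 6.87, 8.08, 6.89, 8.53, 6.51, 7.63, 7.68 and 5.73 in adenomas 1 to 9, against 4.88, 5.13, 4.74, 4.87 and 4.70 in wild type 1 to 5. The groups did not overlap, and the difference was 2.40 ± 0.352 on the log2 scale (difference ± SE, 95% interval 1.65 to 3.15, adjusted p = 0.00049). Its upstream partner Racgap1 rose by 1.58, the midzone bundler Prc1 by 1.70, and the kinesin genes Kif20a and Kif20b by 1.78 and 1.11. The smallest rise was that of Kif23, the motor that pairs with Racgap1, with 6.13, 5.85, 6.79, 6.37, 6.81, 5.95, 6.53, 6.68 and 5.62 in adenomas, against 5.39, 5.53, 5.58, 5.55 and 5.56 in wild type. The lowest adenoma value of Kif23 still lay above the highest wild-type value, and the difference was 0.78 ± 0.183 on the log2 scale (difference ± SE, 95% interval 0.39 to 1.17, adjusted p = 0.00934).

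**Figure D2:**
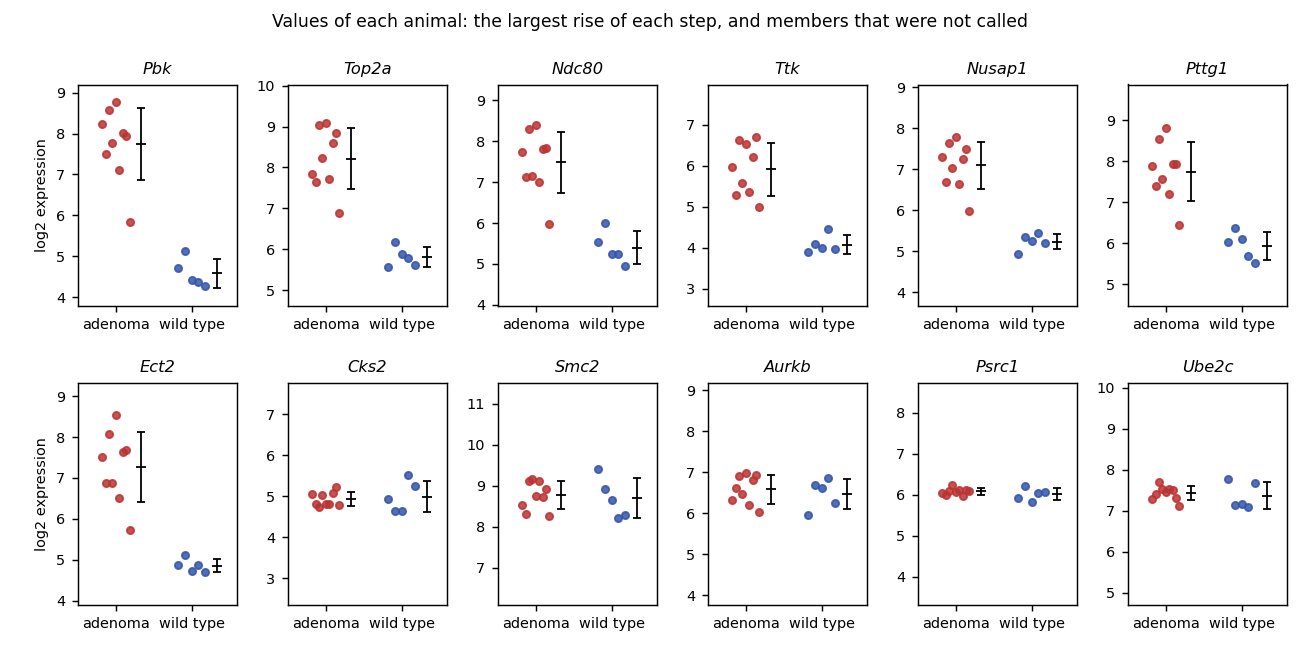
Log2 expression in each of the 9 adenomas (red, left) and 5 wild-type pituitaries (blue, right) for the gene with the largest rise of each step and for 5 genes that were not called, with mean ± SD beside the points and axes of equal height. In Pbk the adenomas run from 5.85 to 8.76 and wild type from 4.27 to 5.14, whereas in Psrc1 adenomas run from 5.98 to 6.23 and wild type from 5.81 to 6.20.

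In 41 of the 46 genes the wild-type mean lay under the lowest array median of 6.36. The 5 above it were Smc2, Smc4, Cdc25b, Ube2c and Aurkb, of which Smc4 alone was called higher, while the other 4 genes that were not called (Cks2, Cdca3, Birc5 and Psrc1) lay under it like most of those that were. The fold of a dim probe set can be understated, and the part of probe brightness in these calls and folds was not tested.

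The rise was graded among adenomas. The mean log2 expression of the 46 genes was 6.80, 6.47, 7.28, 6.65, 7.36, 6.44, 6.92, 7.06 and 5.99 in adenomas 1 to 9, against 5.56, 5.71, 5.58, 5.60 and 5.49 in wild type 1 to 5. Adenoma 5 was highest for 30 of the 46 genes and adenoma 3 for 11, and adenoma 9 was lowest for 39. Across the 38 genes called higher, the median rise over the wild-type mean was 2.24 in adenoma 5 and 0.45 in adenoma 9, and all 38 were above the wild-type mean in each of the 9 adenomas. The SD of the adenoma values exceeded that of wild type for 35 of those 38 genes, with medians of 0.53 and 0.19. Across the 46 genes the adenoma SD went with the log2 difference (r = 0.91), so the wider spread is not separate from the rise. The share over all probe sets is not given.

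Lesions of a shared sample number resembled each other. The SD of the 46-gene mean was 0.44 between adenoma numbers and 0.21 between lesions of 1 number, against 0.08 between wild-type pituitaries. The widest range within a number was 0.67, in adenoma 3, whose lesions had means of 7.64, 6.97 and 7.23, and the lesions of adenoma 9 had 5.99 and 5.98. For 42 of 46 genes the SD between numbers was larger than the SD within them. The genes covary, the SD within numbers rests on 7 degrees of freedom, and this share over all probe sets is not given.

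**Figure D3:**
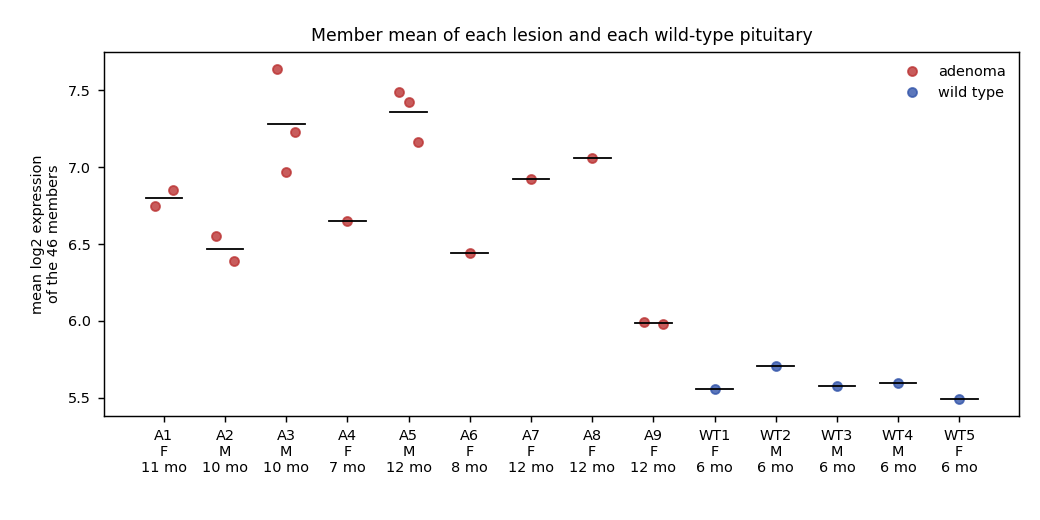
Mean log2 expression of the 46 genes in each lesion (red points, adenomas A1 to A9 with sex and age in months) and each wild-type pituitary (blue, WT1 to WT5), with the mean of each sample number as a line. Wild type stays between 5.49 and 5.71, and the sample-number means of adenomas run from 5.99 in A9 to 7.36 in A5.

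Covariation across adenomas was described over the 9 averaged values, with no test. The points share their arrays' normalization, and adenomas 5 and 9 lie farthest from the median. Over the 1035 pairs among the 46 genes the median Pearson correlation was 0.880 (Spearman 0.883), and 67.4% of pairs exceeded 0.8. Over all pairs of named genes the median was 0.005, with 1.46% above 0.8. Among the genes called higher the median was 0.926, and among the 8 not called it was 0.292. Of these 8, Cks2, Birc5, Psrc1 and Ube2c varied less between sample numbers than between lesions of 1 number, which limits their correlations. Without adenoma 9 the median over all 46 was 0.839 and without adenoma 5 it was 0.854. Taking the 16 lesions as separate points gave 0.871.

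Among the closest pairs, Kif4a and Kif20b had r = 0.996, Bub1b and Kif20b 0.995, Nuf2 and Kif20a 0.994, Ccnb1 and Ndc80 0.993, and Kif4a and Nusap1, both of spindle assembly, 0.992. Pttg1 and Ect2 kept the same rank order of the 9 adenomas (r = 0.990, rho = 1.000). The lowest pair was Cdc25b with Mad2l1, at r = -0.724 (rho = -0.817).

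**Figure D4:**
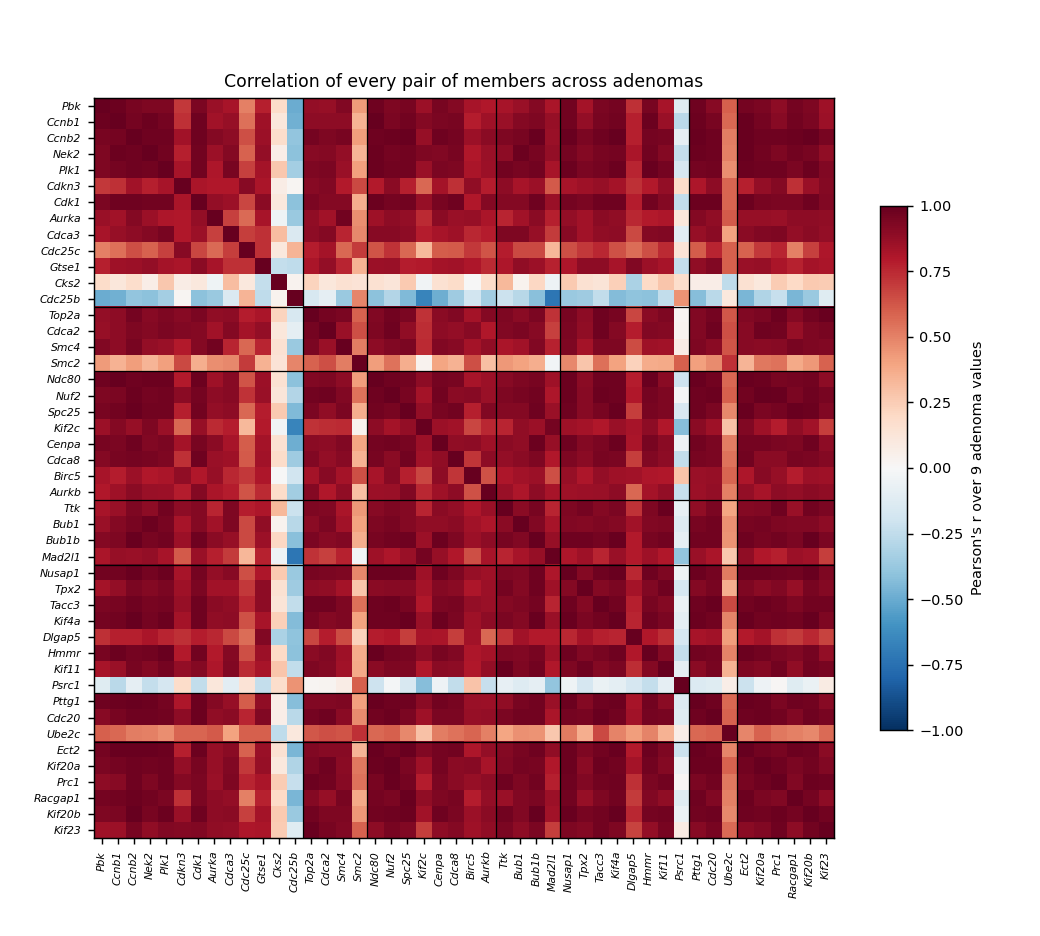
Pearson's r of every pair of the 46 genes over the 9 adenoma values (red positive, blue negative), with lines between the mitotic steps. Most of the field is dark red across step borders, with a median of 0.880, and the rows of Cdc25b, Cks2, Psrc1, Smc2 and Ube2c stand out as pale or blue.

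Set against the mean of the other genes of the list, 39 of the 46 had r above 0.8. These included 36 of the 38 that were called higher, the exceptions being Cdc25c (0.70) and Dlgap5 (0.79). Of the 8 not called, Cdca3 (0.91), Aurkb (0.88) and Birc5 (0.87) followed the mean across adenomas although their difference from wild type did not pass the test. Without adenomas 5 and 9 these 3 correlations were 0.79, 0.76 and 0.78. Ube2c (0.55), Smc2 (0.46), Cks2 (0.15), Psrc1 (-0.10) and Cdc25b (-0.34) followed it less. For Ube2c, Cks2 and Psrc1 the SD between sample numbers (0.17, 0.17 and 0.08) was below that between lesions of 1 number (0.19, 0.19 and 0.11). Their low r therefore cannot be told apart from a lack of variation between adenomas. Birc5 had SDs of 0.15 and 0.16 and still followed the mean.

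**Figure D5:**
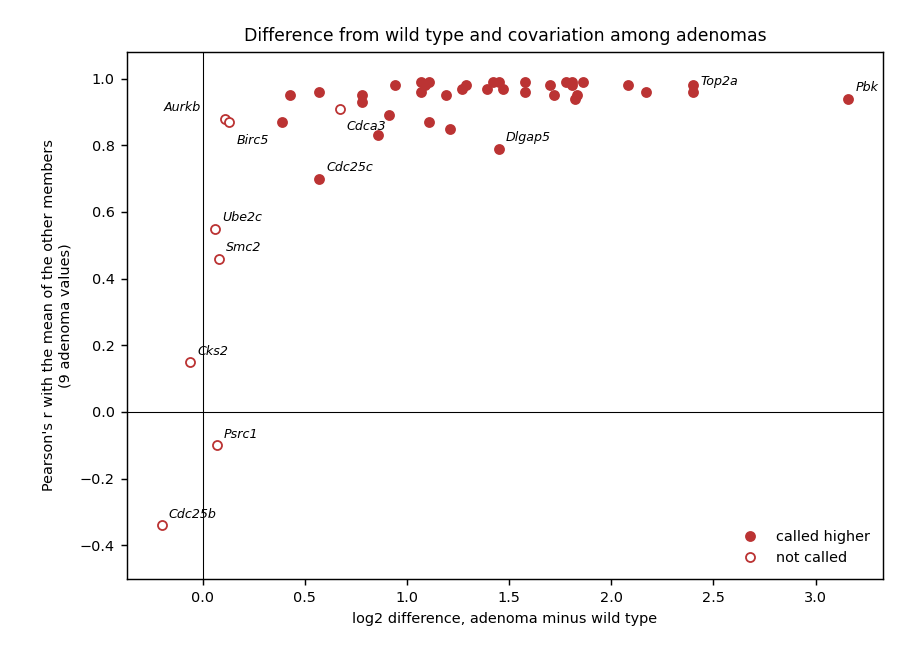
Log2 difference between adenomas and wild type (x axis) against Pearson's r with the mean of the other genes over the 9 adenomas (y axis), each point 1 gene, filled where called higher. Aurkb (0.11, 0.88) and Birc5 (0.13, 0.87) sit high on the left at small differences, while Cks2, Psrc1 and Cdc25b sit low.

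Of all 14506 named genes, 56 had r above 0.9 with the mean of the list, and 32 of these were in the list. The 10 others with the highest r were Knstrn (0.982), Ube2t (0.972), Kif22 (0.969), Arhgap11a (0.968), Spag5 (0.968), Mastl (0.966), Mms22l (0.960), Ska3 (0.955), Mrps12 (0.950) and Hells (0.943). Knstrn, Spag5 and Ska3 encode spindle and kinetochore proteins, Kif22 a chromokinesin and Mastl a kinase of mitotic entry, whereas Mrps12 encodes a mitochondrial ribosomal protein. Of these 10, 9 were called higher in adenomas, by 0.50 to 1.62 on the log2 scale, and Hells (0.42, adjusted p = 0.142) was not.

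Related gene lists gave the setting, beside all 14506 named genes, of which 12.1% were called higher and 1407 genes lower. Of 32 further mitosis genes measured, 17 were higher and 0 lower, with a median log2 difference of 0.41. Ska3, a kinetochore protein, was higher by 1.62 and Cenpk, a centromere protein, by 1.35. Of 31 DNA replication genes, 16 were higher and 0 lower (median 0.46), led by the ribonucleotide reductase gene Rrm2 at 2.66 and the helicase gene Mcm5 at 1.24. The means of both lists followed the mean of the 46 genes across the 9 adenomas (r = 0.98 and rho = 0.98 for mitosis, r = 0.98 and rho = 0.97 for replication).

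Of 8 G1 cyclins and kinases, 3 were higher and 1 lower, with Ccne1 (cyclin E1) at 0.96 and Cdk6 at -1.53. Of 10 transcription factors that act on mitotic genes, 3 were higher and 1 lower. E2f1 was higher by 0.46, and Mybl2, a partner of the MuvB complex, differed by 0.44 and did not pass (adjusted p = 0.107). Foxm1, a forkhead factor of G2 genes chosen after its values were seen, differed by 0.06 (adjusted p = 0.656). Of 15 kinesins of intracellular transport, 1 was higher (6.67%, against 12.1% of all named genes) and 3 were lower (median -0.23). These 3 lists are short, so their shares are imprecise. Kif3a differed by -0.65 (adjusted p = 0.0115) and Kif1a by -0.57 (adjusted p = 0.0211).

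Marker lists of cell types, that of the gonadotroph lineage among them, were set beside the 46-gene mean. The macrophage list, higher in adenomas for 8 of 13 genes, had means of 6.78 to 7.64 in adenomas and 6.31 to 6.85 in wild type, and its r with the 46-gene mean over the 9 adenomas was 0.18 (rho 0.20, and r = 0.60 without adenomas 5 and 9). The gonadotroph list had r = -0.66 (rho -0.67, and r = -0.63 without those 2 adenomas), the endothelial list r = -0.54 (rho -0.65, and r = -0.59 without them) and the red blood cell list r = -0.59 (rho -0.30, and r = -0.35 without them). Of the 5 gonadotroph genes, Cga and Gnrhr were higher in adenomas, Lhb and Fshb were lower, and Gata2 was not called. Among adenomas the SD was 1.24 for Fshb, the beta subunit of FSH, and 0.05 to 0.45 for the others. The gonadotroph mean therefore weighs Fshb most and does not measure the share of gonadotroph cells. Adenoma 9, lowest in the 46-gene mean, had the highest adenoma means of the red blood cell list (7.97) and of the macrophage list (7.64). The part of these cells in the grading was not tested.

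Age and sex were examined within the adenomas. The slope per month of age was positive for 41 of 46 genes, with a median of 0.060 on the log2 scale. None was called (0 by limma, against 0.00342% of all probe sets), and 0 had an unadjusted p under 0.05, against 11.8% of all probe sets. Without adenoma 9, a rat of 12 months, the median slope was 0.132 and 22 genes had an unadjusted p under 0.05, with 0 called. Adenoma 9 was singled out after its low values were seen. Leaving out any other single adenoma gave 0 or 1 such gene, and the median slope was 0.024 without adenoma 5 and 0.027 without adenoma 6. The share of all probe sets in these fits is not given. The 46-gene mean had r = 0.23 with age (rho 0.33).

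Female minus male differences among adenomas were negative for 42 of 46 genes (median -0.414, 6 females and 3 males). None was called (0 by limma, 0% of all probe sets), and 4 had an unadjusted p under 0.05, against 8.01% of all probe sets. Without adenoma 2, the lowest male, 30 genes had an unadjusted p under 0.05 and 0 were called. Leaving out any other single adenoma gave 0 (without adenoma 5) to 5 (without adenoma 8) such genes, with 0 called. Adenoma 2 was singled out after its values were seen, and the genes covary. The share of all probe sets in these fits is not given. Adenomas whose number begins with 09 were all female, and within prefix 08 the median was -0.329. The sex by group interaction was called for 0 genes (0% of all probe sets), and 1 had an unadjusted p under 0.05, against 6.78%.

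Of the list, 20 genes were called higher when only the 5 adenomas and 2 wild-type pituitaries of prefix 08 entered, with a median log2 difference of 1.27, and 29 in the 4 adenomas and 3 wild-type pituitaries of prefix 09, with a median of 1.05. With the 2 adenomas of 7 or 8 months alone against all wild type, 20 were called and the median was 0.95. The share of all probe sets called in these smaller fits is not given, so the lower counts cannot be told apart from the smaller number of animals.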

How the data were processed

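Each of 16 lesions and 5 wild-type pituitaries was measured on its own Rat Gene 1.0 ST array. The authors ran RMA (background correction, quantile normalization and median polish) in Expression Console and deposited log2 values per probe set. The program versions are not given here. Of 29214 probe sets, 15310 carried 1 symbol. Each gene was represented by its probe set with the highest mean over 21 arrays. Lesions sharing a sample number, read as 1 animal, were averaged.

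limma 3.58.1 in R 4.3.3 fitted the group to 9 adenoma and 5 wild-type values, with Benjamini-Hochberg adjustment of p-values across the whole array (called under 0.05). Scripts were tested on simulated data. Named in full were, per mitotic step, the gene with the largest rise and the one with the smallest absolute difference, and genes with negative differences; outside the list, the 10 closest followers and, of each related list, the 2 with the largest absolute difference. Genes, steps and lists were chosen with earlier results of these data known. Quantile normalization would mask a change shared by most genes, and the number of arrays limits precision. Alternatives covered the prefix of the sample number, replicate numbers of the titles, covariates, normalization, filters and left-out animals. The labels name no batch.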

Additional observations from a re-analysis of the deposited data

Results flagged for a closer look

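Kif23 in wild type 1 was 5.39, below the other wild-type values of 5.53 to 5.58, by Dixon's criterion within a group. Chance flags about 1 in 20 groups, and 92 groups of values were examined. Ube2c went opposite ways in the sexes. In females the adenomas had 7.12 to 7.53 and wild type 7.67 to 7.78 (6 and 2 animals), and in males the adenomas had 7.41 to 7.71 and wild type 7.10 to 7.16 (3 and 3 animals). The interaction was -0.74 ± 0.18 on the log2 scale (SE), with an unadjusted p of 0.000927 and an adjusted p of 0.312 in limma, so it did not pass the threshold.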

How the results depend on the processing

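The count of 38 genes called higher was 20 with prefix 08 alone and 20 with the youngest adenomas (7 or 8 months) alone, and the count of 29 with a fold over 2 was 18 with the youngest alone. Both settings use fewer animals, and the share of all probe sets called in them is not given. Under the other alternatives between 35 and 39 genes were called, apart from 29 with prefix 09 alone. A filter at a mean of 6 left 31 genes, of which 26 were called. That mean covered adenomas and wild type together, so genes high in adenomas passed more easily, as Pbk did with a wild-type mean of 4.59. The filter therefore cannot show whether the calls hold for probe sets that are bright in wild type. Leaving out 1 animal gave 37 to 39 genes called, 28 to 30 with a fold over 2, a median log2 difference of 1.10 to 1.29 and a median pairwise correlation of 0.839 to 0.901. Of the 38 genes 36 kept their call whichever animal was left out, and 14 under every alternative in which they were tested. Of those 14, Nuf2 and Ttk did not pass the filter at a mean of 6 and so were not tested in it. Cdc25c lost it without wild type 4 and Cenpa without wild type 3 or 5. Replicate numbers of the titles did not pair the samples (correlations of same-numbered samples 0.20, 0.19, 0.10, 0.08 and -0.05); with the replicate block 35 genes were called, Cdc25c, Cdkn3 and Gtse1 losing their calls.

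Signs turned only among genes that were not called. Cks2 was 0.10 with prefix 08 alone, 0.02 after a second quantile normalization, 0.07 without wild type 4 and 0.00 without wild type 5, leaving out 1 animal giving -0.15 to 0.07. Smc2 was -0.39 with prefix 08 alone, -0.10 with the replicate block, -0.04 without wild type 4 and -0.03 without wild type 5 (-0.04 to 0.25 leaving out 1 animal). Aurkb was -0.09 with prefix 09 alone, -0.14 with the youngest alone and, leaving out 1 animal, -0.02 (without wild type 1) to 0.21. Birc5 was -0.01 with prefix 09 alone, Cdc25b 0.11 with the youngest alone, and Ube2c -0.01 without wild type 4 (-0.01 to 0.16 leaving out 1 animal). The cause was not tested. Centring each array on its median moved the median of all probe sets to 0.009.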
